A study of Parasteatoda tepidariorum with 12 samples.

Results

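The effect of *fuchi* parental RNAi (pRNAi) on transcripts at stage 2 of the spider *Parasteatoda tepidariorum*, the common house spider, whose embryos were sampled 11 h after laying, is described across all 27990 gene models of the deposited count table. The comparison used the 4 stage 2 libraries of the 12 in the series, chosen by their labels alone. Whole embryos of the isolate Osaka were pooled, and poly(A) RNA was sequenced. Females 29D and 29G each gave 1 untreated library, from eggs laid before any injection, and 1 *fuchi* pRNAi library, from eggs laid on day 19 (29D) or day 18 (29G) of a course begun with the first of several injections of *fuchi* double-stranded RNA (dsRNA). The 2 libraries of a group were therefore 2 mothers, and each mother contributed to both groups. No library of a control dsRNA was among them, so the loss of *fuchi*, the injection and the greater age of the injected mother cannot be told apart.

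In a spider egg the early nuclei divide inside the yolk and move to the surface, and the embryo at first works with mRNA that the mother stored in the egg. The genome of the embryo then takes over, and the germ disc, the sheet of cells from which the body arises, forms at 1 side of the egg after stage 2. GATA factors are zinc finger proteins that bind DNA at GATA motifs and are known in many animals for roles in endoderm, gut and blood. *fuchi nashi* (*fuchi*, gene model g26874) encodes a GATA-like transcription factor. In pRNAi, dsRNA injected into the mother depletes the matching transcript in the eggs she lays later. The primers with which the template of the *fuchi* dsRNA was cloned are shown because they mark the transcript that was targeted, with the gene-specific bases in capitals and the added cloning tail in lower case.
g26874 forward primer: ggaattcGACATGTTCTCACCTATTTCCG
g26874 reverse primer: ggaattcTGTAATTGCCTTAAGTCCGATG

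Total counts were 8845226 (untreated) and 8031007 (*fuchi* pRNAi) in female 29D, and 6320551 and 6737404 in female 29G. At these totals 3 counts, taken as the level under which a transcript could be missed, stood for 0.339 to 0.475 CPM (counts relative to the library total). Such limits cover counting error only. After a filter of at least 1 CPM in at least 1 library, 12079 gene models were tested. Libraries of the same mother were more alike than libraries of the same treatment: the correlation of log2 CPM across gene models was 0.974 in 29D and 0.970 in 29G between treatments, against 0.950 between the 2 untreated and 0.953 between the 2 *fuchi* pRNAi libraries. Transcripts of yolk and blood proteins, which tissues of the mother make, summed to 6.9 to 17.2 CPM over the 4 tested members of 16. The endoderm markers Pt-GATA4 (g25261) and Pt-GATA5 (g8337) were not tested at this stage, with 6 and 8 counts in all 4 libraries.

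The targeted transcript was lower in both *fuchi* pRNAi libraries. In 29D the level of *fuchi* was 61.3 CPM before and 15.4 CPM after pRNAi, and in 29G it was 46.4 and 6.90 CPM. All values after pRNAi lay below all untreated values, and 20.7% of the mean untreated level remained. Transcripts of α-catenin (catA, g13984), an adherens junction protein, were at 367 and 423 CPM in 29D and 510 and 471 CPM in 29G, which overlapped between groups. The *fuchi* gene occupies positions 310446 to 328722 of scaffold 177 (plus strand, Ptep_1.0). The log2 fold change of *fuchi* was -2.26 ± 0.40 (SE, n = 2 per group) without regard to the mother (edgeR quasi-likelihood test, adjusted p = 0.96) and -2.33 ± 0.29 with the mother as a block (adjusted p = 4.42e-07).

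With each mother's eggs compared with her own earlier ones, transcripts of Pt-GATA1, the BMP-type ligand gene Pt-dpp, an FGF8-like and an MSX-2-like gene were lower after *fuchi* pRNAi beside *fuchi* itself. An N-acetyltransferase gene of amino sugar synthesis dropped to 8.03% of its untreated level, and transcripts of several uncharacterized genes were higher. These differences were called when the mother was part of the fit. Without the block, the quasi-likelihood test of edgeR called 0 of 12079 gene models (adjusted p under 0.01), which is 0.0% of those tested, while 466 had an unadjusted p under 0.05. Also without the block, the likelihood ratio test of edgeR called 4 and DESeq2 called 13. With the female as a block, 71 gene models passed (0.588% of those tested), of which 49 were lower (0.406%) and 22 higher (0.182%) after *fuchi* pRNAi. All 13 of the DESeq2 calls were among the 71. In what follows, "fell" and "rose" refer to these 71, and values of other gene models are given without such a verb. The block fit has 1 residual degree of freedom per gene model and draws on a prior worth 47.9, so its calls rest on the spread shared across gene models. Where all 12 libraries were fitted together with the block, which leaves 5 residual degrees of freedom, 9 of the 71 were called. Pt-GATA1 and Pt-dpp were not among these 9 (edgeR adjusted p = 0.318 and 0.654). Without the filter on low counts, the block fit of stage 2 called 1.

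**Figure D1:**
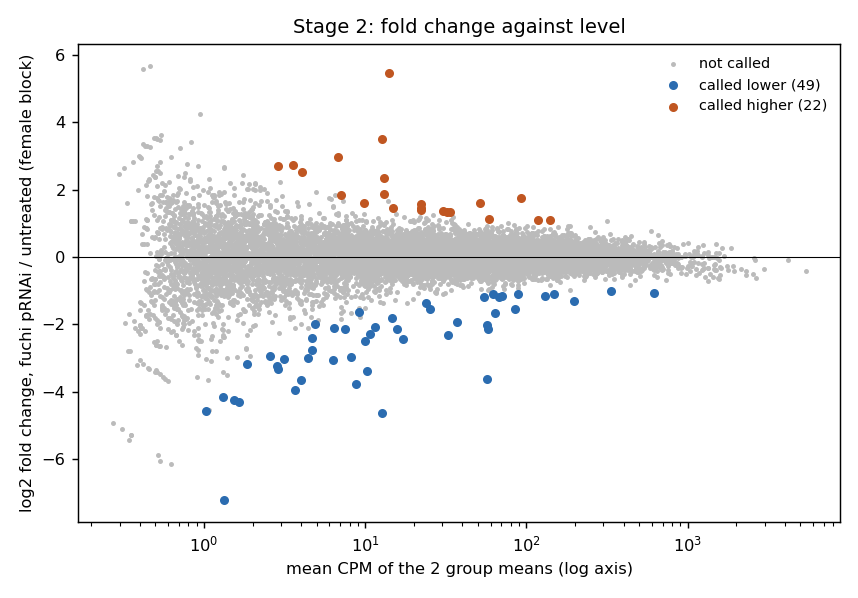
Log2 fold change of *fuchi* pRNAi over untreated from the fit with the female block, against the mean CPM on a log axis, with 1 point for each of the 12079 gene models tested at stage 2. The 49 gene models that fell (blue) and the 22 that rose (orange) spread from low to high levels, and all changed at least 2-fold. Their median level was 13.1 CPM, beside 32.4 CPM over all gene models tested.

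The 9 gene models called in both block fits were *fuchi*, the N-acetyltransferase g11169, the sorting nexin g9139, the homeobox gene g4533, the FGF gene g5611 and the cytochrome P450 gene g12531, which fell, and the uncharacterized g2604, g18497 and g20876, which rose. All 71 had a fold change of at least 2 in the block fit, and 38 of them one of more than 4, where 11201 of all 12079 stayed under 2-fold. In 61 of the 71 the groups did not overlap, which was the case for 16.4% (lower) and 16.3% (higher) of all gene models tested. Within each mother on her own, 55 of the 71 changed at least 2-fold in the same direction. The median of the 49 that fell was -2.29 on the log2 scale and that of the 22 that rose 1.60, while the median over all gene models was 0.01. These counts, directions and fold changes come from the contrast that made the calls and describe it. Of the 71, 35.2% were uncharacterized or had no description, against 23.5% of all tested. The gene models nearest to the threshold were a dienoyl-CoA isomerase (g25915, adjusted p = 0.00968) and a histidine-rich protein (g27481, 0.00996) inside it, and a thrombospondin-4-like gene (g27255, 0.0111) and a chloride channel regulator (g11056, 0.0120) outside it (edgeR, female block).

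**Figure D2:**
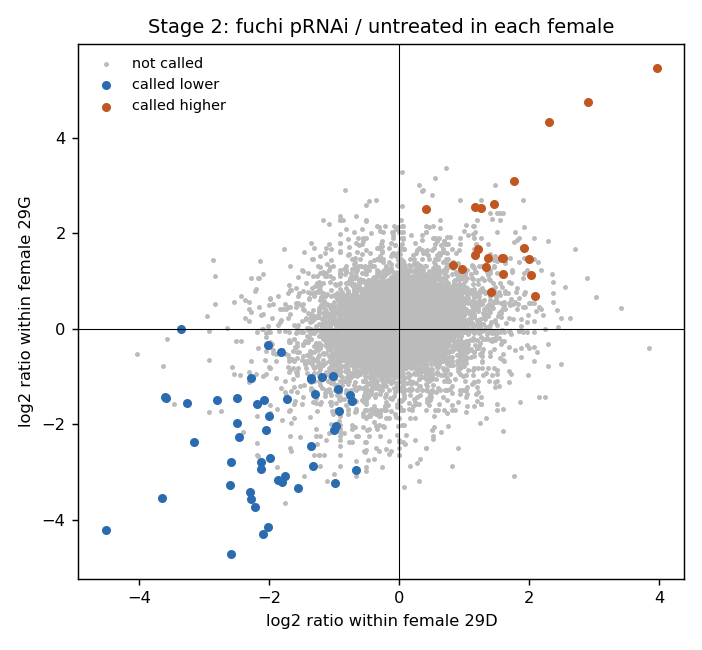
Log2 ratio of *fuchi* pRNAi over untreated within female 29D (horizontal axis) and within female 29G (vertical axis) for the gene models tested at stage 2. Most gene models lie near 0 in both mothers. The called ones lie in the lower left (fell) and the upper right (rose), apart from g18940, whose ratio was 0.0 in 29G. The same libraries made the calls.

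Among the 8 GATA family genes, 3 were tested and 2 of these fell, the target *fuchi* and Pt-GATA1, beside 0.406% of all tested. As *fuchi* was the target of the dsRNA, its own fall is not a finding about the family. Pt-GATA1 (g20514), a canonical GATA factor, was at 130 CPM untreated and 26.5 CPM after pRNAi in 29D, and at 66.7 and 32.6 CPM in 29G. Its groups did not overlap, and its log2 fold change was -1.67 ± 0.26 (SE; edgeR with block, adjusted p = 4.60e-05; without it, 0.96). The 12-library block fit did not call it (adjusted p = 0.318). The third, Pt-GATAL2b (g26875), a GATA-like gene that neighbours *fuchi* on scaffold 177, was at 3.51 and 0.496 CPM in 29D and at 0.312 and 0.587 CPM in 29G, so the mothers differed in direction. The tested homolog of u-shaped, a cofactor that binds GATA factors in Drosophila, was at 4.10 and 1.86 CPM in 29D and at 6.70 and 4.403 CPM in 29G (ush-like, g14866, adjusted p = 0.431 with block).

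Further transcription factor genes fell. The homeobox gene described as MSX-2-like (g4533; Msx proteins are mostly repressors of transcription) was at 7.72 CPM untreated and 1.36 CPM after pRNAi in 29D, and at 15.1 and 1.17 CPM in 29G. Its log2 fold change was -3.08 ± 0.47 (edgeR with block, adjusted p = 2.63e-05), and the groups did not overlap. A gene described as GLIS3 (g7905), a zinc finger factor related to the Gli proteins, was at 5.73 and 1.12 CPM in 29D and at 10.8 and 1.17 CPM in 29G (adjusted p = 0.000373). A homeobox gene described as TGIF2LX (g11579), of the TALE class, was at 6.44 and 2.36 CPM in 29D and at 31.6 and 5.58 CPM in 29G (adjusted p = 0.000671). The untreated level of g11579 in 29G was thus several times that in 29D, and the difference between the mothers was itself called (adjusted p = 0.000293). Of 11 patterning genes of the study that were tested, 1 fell (beside 0.406% of all tested), Pt-dpp, and 10 were not called. Pt-Delta (g25248), a Notch ligand, changed by -1.43 on the log2 scale without being called (adjusted p = 0.0831), and Pt-hh (g4322) was at or under 1.76 CPM in every library.

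The developmental signalling list, with ligands, receptors and transducers of the Hedgehog, BMP, Notch, Wnt and FGF pathways, had 58 tested members of 123, of which 3 fell and 1 rose. Its median log2 fold change was 0.02, beside 0.01 over all gene models tested, of which 0.406% fell and 0.182% rose. Pt-dpp (g16926), a ligand of the BMP type, was at 60.2 CPM untreated and 23.4 CPM after pRNAi in 29D, and at 90.2 and 43.4 CPM in 29G. The log2 fold change was -1.20 ± 0.25 (edgeR with block, adjusted p = 0.00304; without it, 0.96). The 12-library block fit did not call Pt-dpp (adjusted p = 0.654). The ligand gene described as fibroblast growth factor 8-like (g5611) was at 24.0 and 5.58 CPM in 29D and at 27.6 and 6.16 CPM in 29G, and fell by 2.13 ± 0.33 on the log2 scale (adjusted p = 3.39e-05). The untreated libraries of the 2 mothers were close to each other for g5611, as were the 2 *fuchi* pRNAi libraries. The third that fell, a model described as a Notch 1 homolog (g18940), had 43 counts in untreated and 2 in *fuchi* pRNAi embryos of 29D and 0 in both libraries of 29G. Its ratio of 21.4-fold (exact 95% counting interval 5.57 to 182) thus came from 1 mother alone. The gene that rose is described as sonic hedgehog protein-like (g16219), a model other than Pt-hh. It was at 5.15 and 16.2 CPM in 29D and at 4.52 and 13.2 CPM in 29G, and rose by 1.60 ± 0.36 on the log2 scale (adjusted p = 0.00843). Neither the 12-library block fit of edgeR (adjusted p = 0.0576) nor DESeq2 with the block (adjusted p = 0.301) called g16219. The most abundant uncalled members were a fibroblast growth factor receptor (g26271, log2 fold change -0.26), a patched domain protein (g10219, -0.19) and Mothers against dpp (g26552, -0.26), the transducer of BMP signals.

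**Figure D3:**
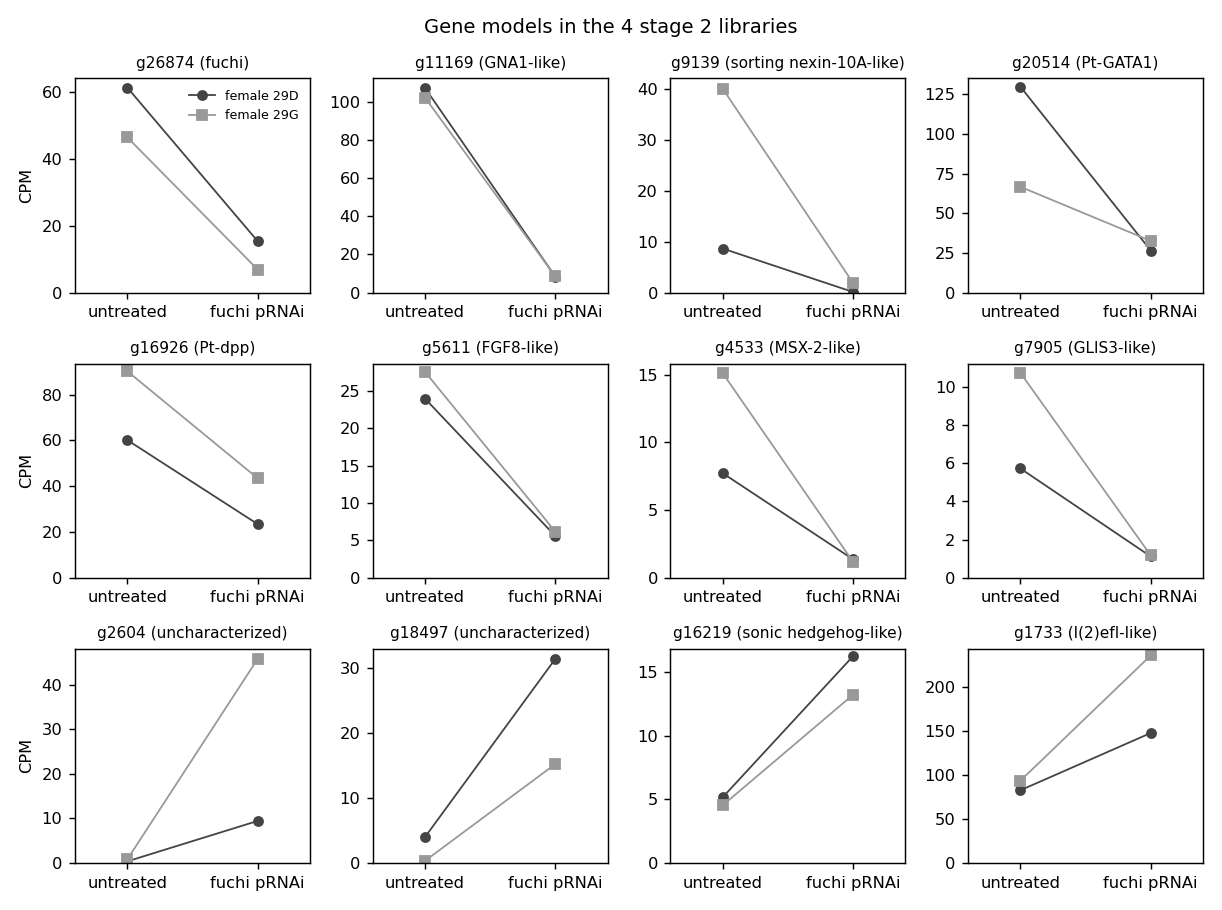
CPM (vertical axes, from 0) of 12 gene models in the 4 stage 2 libraries, with a line joining the untreated and the *fuchi* pRNAi library of each female (circles 29D, squares 29G). The first 8 fell and the last 4 rose in both females. The g11169 level went from 107 to 8.31 CPM in 29D and from 102 to 8.51 CPM in 29G.

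The smallest p of all gene models, with and without the block, belonged to g11169. The file describes its product as a probable N-acetyltransferase of glucosamine 6-phosphate, which makes N-acetylglucosamine 6-phosphate on the way to UDP-N-acetylglucosamine, the building block of chitin and of many glycans. Its counts were 917 in untreated and 67 in *fuchi* pRNAi embryos of 29D, and 656 and 58 in 29G. Mean levels were 105 ± 3.60 and 8.41 ± 0.146 CPM (SD, n = 2), so 8.03% remained. The log2 fold change was -3.64 ± 0.27 without the block (edgeR adjusted p = 0.0157) and -3.64 ± 0.28 with it (adjusted p = 1.46e-13). It was also the 1 gene model called without the block in the fit of all 12 libraries. The gene lies on scaffold 1271 from 33464 to 39394 on the minus strand and overlaps no other gene model. The rest of the amino sugar and chitin list, 29 tested members, was not called. The aminotransferases that open the route were at 168 and 222 CPM in 29D and 257 and 361 CPM in 29G (g21223), and at 170 and 201 and then 246 and 327 CPM (g14360). The mutase of the next step (g8886) was at 43.5 and 42.0 CPM in 29D and at 57.3 and 60.5 CPM in 29G.

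Of the endosome and vesicle traffic list 2 of 169 tested members of 193 fell, beside 0.406% of all tested gene models. The gene described as sorting nexin-10A-like (g9139), of a family of proteins that bind endosomal membranes, was at 8.66 CPM untreated and 0.124 CPM after pRNAi in 29D, and at 40.1 and 1.91 CPM in 29G. The log2 fold change was -4.65 ± 0.47 (edgeR with block, adjusted p = 1.46e-09). Its levels differed between the mothers (edgeR with treatment in the fit, adjusted p = 6.12e-05 for the mother). A cathepsin L1-like protease gene (g9137) 2 gene models away on scaffold 992 fell too, from 14 to 1 counts in 29D and from 30 to 1 in 29G, a ratio of 21.9-fold (exact 95% counting interval 5.71 to 186). The beta-amyloid-like gene (g8414), which encodes a membrane protein of the amyloid precursor family, was at 262 and 107 CPM in 29D and at 299 and 117 CPM in 29G, with a log2 fold change of -1.32 ± 0.22 (adjusted p = 8.12e-05).

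A chondroitin sulfate proteoglycan 4-like gene (g11598) was at 39.0 and 6.82 CPM in 29D and at 19.3 and 3.82 CPM in 29G (adjusted p = 3.80e-06). The allatostatin-A receptor gene (g1345), a G protein-coupled receptor of neuropeptides, was at 77.3 and 19.1 CPM in 29D and at 39.9 and 11.0 CPM in 29G (adjusted p = 6.23e-06). Dystrophin (g16844), which ties the actin cortex to the membrane, was at 125 and 62.4 CPM in 29D and at 125 and 28.6 CPM in 29G (adjusted p = 6.40e-05). For these 3 the groups did not overlap. Models described as Down syndrome cell adhesion molecule-like are immunoglobulin-type adhesion proteins and have many copies in arthropods, so their counts are uncertain. Of these, g25674 went from 307 to 22 counts in 29D and from 13 to 4 in 29G, and g14610 from 43 to 7 and from 34 to 1 (both named after their values were seen). The adhesion and matrix list itself had 0 of 60 tested members called, since g11598, g25674 and g14610 were not matched to it.

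Among enzymes, cytochrome P450 18a1 (g12531), which inactivates ecdysteroids in Drosophila, was at 11.1 and 3.099 CPM in 29D and at 23.4 and 2.50 CPM in 29G (log2 fold change -2.51 ± 0.40, adjusted p = 4.60e-05). The gene described as retinal dehydrogenase 1-like (g2991), an aldehyde dehydrogenase, was at 450 and 223 CPM in 29D and at 443 and 222 CPM in 29G (-1.01 ± 0.21, adjusted p = 0.0043; edgeR with block for both). The mothers gave nearly the same ratio for g2991. Among uncharacterized models, g11203 was at 91.9 and 13.0 CPM in 29D and at 93.0 and 32.9 CPM in 29G. A potassium channel-like model (g11089), named after its values were seen, had 7 and 29 counts in the untreated and 0 in both *fuchi* pRNAi libraries, so it was at least 11.9-fold lower, taking 3 counts over the group as the floor.

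The gene models that rose furthest are uncharacterized. The model g2604 had 3 counts in untreated and 76 in *fuchi* pRNAi embryos of 29D, and 5 and 312 in 29G (log2 fold change 5.46 ± 0.50, edgeR with block, adjusted p = 8.06e-11). The rise was 3.97 in 29D and 5.46 in 29G on the log2 CPM scale. The model g18497 had 34 and 254 counts in 29D and 2 and 104 in 29G (adjusted p = 4.03e-08). It overlaps the kinesin-like g18496 on the opposite strand, whose counts were 95 and 67 in 29D and 61 and 113 in 29G, and no source used here says whether the counting used strand. The model g20876 had 25 and 126 counts in 29D and 1 and 56 in 29G (adjusted p = 2.63e-05). In all 3 of these the groups did not overlap, but the lowest untreated library was that of 29G in 2 of them and that of 29D in g2604.

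Among described genes that rose, speckle-type POZ protein-like (g18036), a family that includes substrate adaptors of cullin ubiquitin ligases, was at 6.55 and 22.9 CPM in 29D and at 2.18 and 20.8 CPM in 29G (adjusted p = 3.39e-05). It overlaps g18035 on the same strand, so its counts are uncertain. The gene described as serine-rich adhesin for platelets (g1934) was at 24.8 ± 1.69 CPM untreated and 77.5 ± 28.7 CPM after pRNAi (SD, n = 2) (adjusted p = 8.12e-05). The gene described as protein lethal(2)essential for life-like (g1733), a family of small heat shock proteins in Drosophila, was at 82.4 and 147 CPM in 29D and at 93.2 and 235 CPM in 29G (1.09 ± 0.22, adjusted p = 0.00304). The gene described as an oxidative stress-induced growth inhibitor (g604) was at 65.2 and 175 CPM in 29D and at 84.6 and 144 CPM in 29G (adjusted p = 0.00368). It lies 2 gene models from an aquaporin gene (g602) on scaffold 259, named after its values were seen, which went the other way, from 30 to 10 counts in 29D and from 80 to 10 in 29G. Tankyrase-2-like (g357), a poly(ADP-ribose) polymerase, rose by 1.12 ± 0.24 on the log2 scale (adjusted p = 0.00652), and peroxisome assembly protein 12 (g19317) by 1.37 ± 0.28 (adjusted p = 0.00282; edgeR with block for all).

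Lists of genes that act in every early embryo held no called member. These were the double-stranded and small RNA machinery (0 of 33 tested), maternal mRNA control and germ line (0 of 61), the cell cycle (0 of 54), histones (0 of 18), RNA polymerase II machinery (0 of 84), cytosolic ribosomal proteins (0 of 72), the respiratory chain and ATP synthase (0 of 67), chaperones (0 of 84) and the cytoskeleton (0 of 173). The same held for cuticle and egg shell (0 of 29), immune defence (0 of 31), yolk and blood proteins (0 of 4) and mobile elements (0 of 1). With adhesion and matrix and the u-shaped homologs they make 15 lists with 766 tested gene models, of which 11.1% had an unadjusted p under 0.05 in the edgeR block fit, beside 12.5% of all tested. Other block tests called 3 of these (3 by the likelihood ratio test, 2 by legacy quasi-likelihood, 0 by DESeq2 and by limma-voom), a mucin-17-like (g13459), a paramyosin (g16193) and a cytochrome c oxidase subunit 6C-like model (g7599), named after their values were seen. The share called over all gene models, 0.588%, means that a list of such a size would hold few calls. The lists hold only what was matched to them, so called genes of a like kind can stand outside. The small heat shock family gene g1733, which rose, is not in the chaperone list. Dystrophin (g16844), which fell, is not in the cytoskeleton list. Medians of the 15 lists ran from -0.14 (cell cycle) to 0.07 (cytosolic ribosomal proteins) on the log2 scale, apart from 2 lists with a single tested member, the mobile elements (-0.37) and the u-shaped homologs (-0.83). In the cell cycle list 30 of 54 members were lower in both mothers and 7 higher in both, beside 3430 lower and 3491 higher of all 12079. The most abundant members were a cyclin B (g8469, log2 fold change -0.19), a cyclin A (g2080, -0.07) and a cyclin B3 (g14278, 0.03). Piwi-like protein 1 (g11104), an Argonaute protein that carries piRNAs, was at 806 and 578 CPM in 29D and at 762 and 610 CPM in 29G (adjusted p = 0.436). A model described as argonaute-4-like (g12799), of the same protein family, was at 464 and 446 CPM in 29D and at 451 and 503 CPM in 29G.

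**Figure D4:**
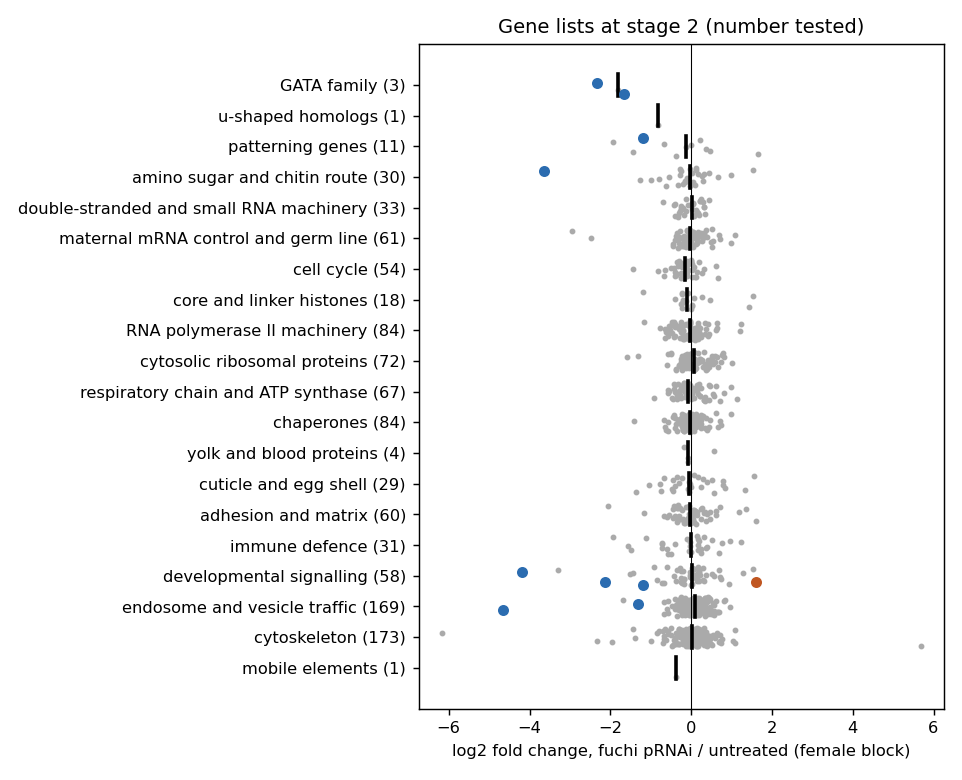
Log2 fold change of *fuchi* pRNAi over untreated at stage 2 (female block) for the tested members of 20 gene lists, with 1 grey point a gene model, a black bar at the median of the list, and called members in blue (fell) or orange (rose). Called members stood in the GATA, patterning, amino sugar, developmental signalling and endosome lists, and the medians of lists with at least 10 tested members lay between -0.14 and 0.08.

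Differences between the mothers were more numerous than those between treatments. With treatment in the fit, 631 gene models (5.22%) differed between 29G and 29D (edgeR, adjusted p under 0.01), 257 lower and 374 higher in 29G, and 521 differed over 4-fold, against 194 between treatments. Of the 71 gene models called for treatment, 20 were also called for the mother. A cytochrome c oxidase subunit 3 model (g20563), a subunit that animals encode in mitochondrial DNA, was called for the mother (adjusted p = 3.13e-13) and not for treatment (adjusted p = 0.537). It was at 1343 and 595 CPM in 29D and at 8680 and 10980 CPM in 29G. The respiratory chain list, which holds g20563, summed to 6691 and 5740 CPM in 29D and 14099 and 16619 CPM in 29G. The *fuchi* pRNAi libraries of the mothers also differed in day, 19 in 29D and 18 in 29G. Among these libraries nothing separates the day from the mother. The untreated libraries of both mothers are labelled day 0.

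Whether *fuchi* pRNAi libraries were earlier or later in development was described with gene models that rise or are cleared at least 4-fold from stage 2 to stage 3 in the untreated libraries of the other mother. Rising gene models held 3.64% of the counts in untreated and 3.41% in *fuchi* pRNAi embryos of 29D, and 2.38% and 2.75% in 29G. Cleared ones held 17.5% and 17.1% in 29D, and 15.95% and 17.8% in 29G. At this limit the shares moved in opposite directions in the mothers. With gene models that change at least 8-fold, the rising share was higher after pRNAi in both, from 0.386% to 0.419% in 29D and from 0.355% to 0.418% in 29G, so the direction in 29D depends on the limit. The cleared share at 8-fold still moved in opposite directions, from 10.05% to 9.38% in 29D and from 8.26% to 9.74% in 29G. With 2 mothers no test was made.

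The 71 gene models were then followed in the libraries of stage 3 (20 h) and early stage 5 (31 h), which are other libraries of the same mothers and may come from the same egg sacs. In whole embryos, fewer cells of a type and less RNA per cell cannot be told apart. Of the 71, 64 were tested at stage 3, and 56 of these (87.5%) had the same sign as at stage 2, beside 61.2% of all gene models tested at both stages. At early stage 5, 49 were tested and 32 (65.3%) had the same sign, beside 57.6%. The median log2 fold change of those that fell was -1.18 at stage 3 and -0.57 at early stage 5, and of those that rose 0.78 and 0.14. With the block, 13 were called at stage 3 (10 lower and 3 higher), beside 0.922% of all gene models tested at both stages. At early stage 5 it was 12 (10 lower and 2 higher), beside 4.11%, and the 2 higher were g1934, which rose at stage 2, and g4533, which fell there. Without the block, 2 were called at stage 3 (beside 0.167%), *fuchi* and the cathepsin L1-like g9137. At early stage 5, 8 were called without it (beside 2.25%), all lower: these 2, g9139, g2991, a 23 kDa integral membrane protein gene (g25382), an uncharacterized model (g2117), a short-chain dehydrogenase gene (g1593) and a zinc finger RNA-binding protein-like gene (g143).

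Levels in untreated embryos followed several courses. Of the 49 gene models that fell, 14 dropped under 25% of their untreated stage 2 level by stage 3 (28.6%, beside 10.4% of all tested), 3 exceeded 4 times that level and 32 stayed between. Since the untreated stage 2 libraries also took part in the calls, this is a description only. Levels in the following sentences are CPM scaled over all 12 libraries. Untreated g11169 was at 89.1 CPM at stage 2, 4.53 CPM at stage 3 and 6.27 CPM at early stage 5, and Pt-GATA1 (g20514) at 83.9, 7.18 and 2.53 CPM. Untreated *fuchi* (g26874) went the other way, from 45.9 to 228 and 292 CPM, and g9137 from 2.66 to 20.8 and 312 CPM. After *fuchi* pRNAi, g9137 was at 0.116, 0.150 and 0.907 CPM. The FGF8-like g5611 was at 21.9, 34.7 and 141 CPM in untreated and at 5.04, 75.2 and 144 CPM in *fuchi* pRNAi embryos, so that it was lower than untreated at stage 2 and not at the later stages.

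The difference between the effect at stage 2 and that at stage 3 was called for 0 of 14498 gene models (0.0%; edgeR interaction in a fit of all 12 libraries, 594 at an unadjusted p under 0.05). With the block 4 were called (0.0276%), among them g5611 (adjusted p = 0.0024; 0.0322 without the block), and the likelihood ratio test called 22. Between stage 2 and early stage 5 the effect differed for 64 gene models (0.441%), of which 63 had the higher log2 fold change at stage 2. Without the untreated stage 2 library of 29D the count was 32, without that of 29G 34, and without the *fuchi* pRNAi library of 29G 35. With the block it was 138 (0.952%). Of the 71, 3 were among the 64. For g2991 the log2 fold change was -5.81 at early stage 5 (difference 4.75 ± 0.41, adjusted p = 0.000122), and for g2117, chosen after its values were seen, -7.64 (difference 6.40 ± 0.62, adjusted p = 0.000234). For the MSX-2-like g4533 it was 3.86 at early stage 5, where the untreated level was 0.170 CPM and the *fuchi* pRNAi level 2.84 CPM (difference -7.06 ± 0.98, adjusted p = 0.00179).

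**Figure D5:**
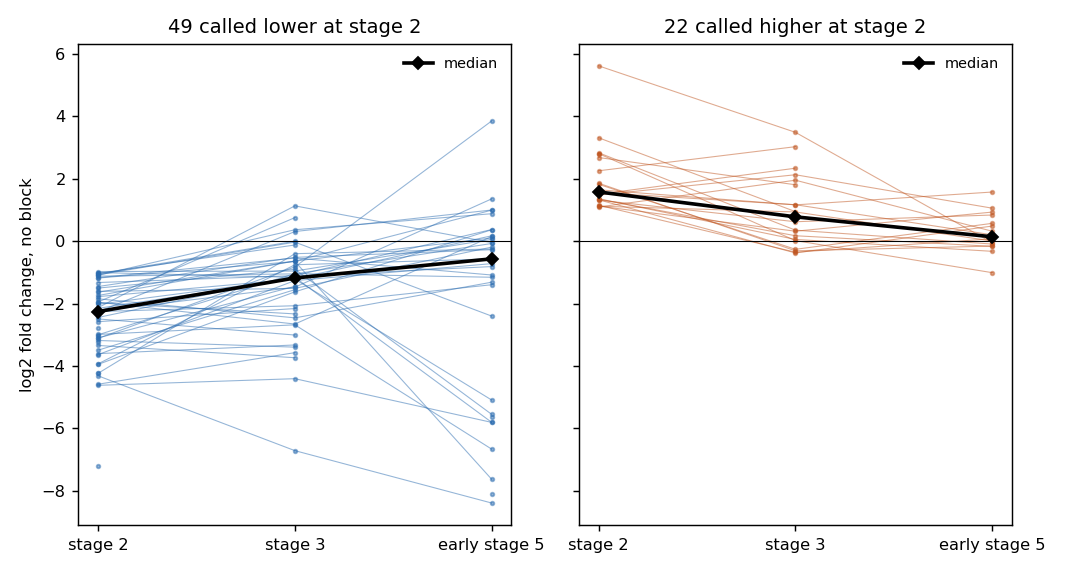
Log2 fold change of *fuchi* pRNAi over untreated (no block) at the 3 stages, in order of time, for the 49 gene models that fell (left) and the 22 that rose (right) at stage 2, with a line for each gene model where it was tested and black diamonds at the medians. The medians approach 0 at the later stages, the libraries of stage 2 having made the choice, while several gene models that fell lie under -4 at early stage 5.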

How the data were processed

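The authors counted reads per AUGUSTUS gene model of the Ptep_1.0 assembly with htseq-count of HTSeq 0.6.1p1 and deposited raw counts and RPKM values (counts relative to gene length and a library total). The kit was strand-specific. The sources used here do not give the aligner or the strand setting. Descriptions and positions come from the deposited table, and 18859 of 27990 gene models had an NCBI gene.

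Counts of the 4 stage 2 libraries were normalized with TMM in edgeR 4.0.16 (R 4.3.3), kept at 1 CPM in at least 1 library, and tested with the quasi-likelihood F test (legacy = FALSE), Benjamini-Hochberg adjusted p under 0.01, two-sided. The labels give the mother of each library, and deviations from group means correlated with 0.567 within a mother, so the female was also fitted as a block. The SE is the log2 fold change over the square root of F. CPM use TMM-scaled totals of the kept gene models, and log2 CPM a prior count of 2. The likelihood ratio test, DESeq2 1.42.0, limma 3.58.1 (voom, and log2(RPKM + 1) or + 0.1), RLE factors, other filters, all 12 libraries, and each library left out were alternatives. Interactions used all 12 libraries. The fits were also run on simulated counts drawn with the same spread for every gene model. Since the block calls rest on a shared spread, that run does not check them.

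Named were *fuchi*, catA, gene models called without a block by any count test, the 20 lower and 14 higher block calls of smallest p with groups that do not overlap, called list members, and up to 3 abundant uncalled members a list. Further ones are marked as chosen after their values were seen or are values of list members. Members and lists were chosen with earlier results of these data known, and list patterns were corrected on descriptions after the files were read. Primer sequences are from the supplementary material of the study.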

Additional observations from a re-analysis of the deposited data

Results flagged for a closer look

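The effect of *fuchi* pRNAi differed between stage 2 and early stage 5 for 3 of the 71 gene models, by the interaction test in edgeR without a block. The difference (stage 2 minus early stage 5, log2) was 4.75 for the retinal dehydrogenase 1-like g2991 (adjusted p = 0.000122), 6.40 for the uncharacterized g2117 (adjusted p = 0.000234) and -7.06 for the MSX-2-like g4533 (adjusted p = 0.00179). The untreated level of g4533 at early stage 5 was 0.170 CPM. That is under the 0.339 to 0.475 CPM that 3 counts stood for at stage 2, so the size of its difference is uncertain.

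The share of counts in gene models that rise from stage 2 to stage 3 was lower after *fuchi* pRNAi in 29D and higher in 29G at a limit of 4-fold, with a difference of 0.304 between the log2 ratios of 29G and 29D. At 8-fold it was higher in both, with log2 ratios of 0.116 in 29D and 0.235 in 29G. For gene models that are cleared the difference at 4-fold was 0.19, and at 8-fold their log2 ratios were -0.0994 in 29D and 0.237 in 29G. Each mother gave 1 ratio, so these differences were not tested.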

How the results depend on the processing

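Without the block, the number of gene models called at stage 2 was 0. It was 4 with the likelihood ratio test, 13 with DESeq2, 1 in the fit of all 12 libraries, 1 at an adjusted p under 0.05, and 0 to 1 when a library was left out, the 1 being g11169 without the second untreated replicate. It stayed at 0 with RLE factors, no filter, 1 CPM in 2 libraries, legacy quasi-likelihood and limma on RPKM. With the female as a replicate block it was 71, and 101 with the likelihood ratio test, 26 with DESeq2, 93 with legacy quasi-likelihood, 70 with limma-voom, 143 with limma on log2(RPKM + 1), 9 with all 12 libraries and 1 with no filter. Of the 71, these tests shared 70, 26, 64, 57, 59, 9 and 1. The difference between stage 2 and stage 3 was called for 0 gene models, 4 with the replicate block and 22 with the likelihood ratio test, and 0 without each library. Between stage 2 and early stage 5 it was 64, 138 with the block and 226 with the likelihood ratio test, and 32 to 50 without each library. The mean log2 ratio of rising gene models (0.0568) and of cleared ones (0.065) moved by less than the spread of the mothers at 8-fold or 20 CPM, but at 8-fold the rising ratio of 29D turned from -0.0954 to 0.116. Of 1930 values of named gene models under the alternatives, 232 passed the threshold where the test without the block did not, and 0 of those had the other direction. A further 70 changed sign without being called. Many of the named gene models were chosen because some of these same alternatives called them. The test without the block called 0, so no call could be lost. These counts therefore describe the choice and are no check of the calls.

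DESeq2 gave no adjusted p for 1640 gene models without and 1405 with the block. The libraries allow no statement under 3 counts, and 2 mothers limit every test. Leaving out a library under the block leaves no residual degree of freedom and was not run.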
